A study of Mus musculus with 20 samples.

Results

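The genes described here encode the insulin-like growth factors Igf1 and Igf2, their receptors Igf1r and Igf2r, and the binding proteins Igfbp2, Igfbp3, Igfbp4, Igfbp5, Igfbp6 and Igfbp7. They were taken by gene symbol, and all 10 were found among the 18657 genes of the 6-month table and the 17808 genes of the 6-week table of normalised counts. RNA of 20 hearts from Sorbs2 mice was sequenced, 1 library per sample. The labels name the tissue as left ventricle and the extraction as ventricular myocardium. Sorbs2 encodes an adaptor protein of the sarcomeric Z-disc and intercalated disc. At 6 months of age there were 4 knockout mice given an adeno-associated virus (KO+AAV), 5 untreated knockout mice (KO) and 5 untreated wild-type mice (WT). The virus, AAV9-Tnnt2-Sorbs2, was injected on postnatal day 2 and carried Sorbs2 behind the cardiac troponin T promoter, which is active in cardiomyocytes. At 6 weeks there were 3 untreated KO and 3 untreated WT mice. The labels give neither the strain, the sex, nor how the knockout allele was made, and no control virus was among the groups. Replicates are separate samples in the labels, which do not state how animals, litters or processing days were distributed over them.

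Insulin-like growth factors are secreted peptides related to insulin. IGF1R is the receptor tyrosine kinase that passes their signal to the phosphoinositide 3-kinase and mitogen-activated kinase pathways, whereas IGF2R binds IGF2 and carries it to lysosomes for breakdown. Binding proteins hold the growth factors in the circulation and the extracellular matrix, can block or prolong their action, and are cut by proteases that release the ligand. In the heart, the growth factors are known for promoting the growth and survival of cardiomyocytes, and in mice Igf2 is expressed strongly before birth and declines afterwards.

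Sorbs2 itself had normalised counts of 1648, 612, 593, 494 and 1755 in KO hearts at 6 months. In KO+AAV hearts it had 4696, 5753, 15690 and 17923, and in WT hearts 5352, 5398, 5136, 4562 and 4753. KO replicates 1 and 5 thus lay above the other 3 KO libraries, and all KO values lay below those of the other groups. At 6 weeks the counts were 365, 334 and 276 in KO hearts and 1409, 1751 and 1990 in WT hearts. Some libraries stood apart in ways that the groups do not explain. At 6 months the first principal component of the values left after removal of group means held 36.7% of that variance, and it was negative in KO+AAV replicates 1 and 2, KO replicates 1 and 5 and WT replicates 4 and 5. Because this component was drawn from the same values, a split of libraries by its sign narrows the spread within groups. The p values within such a split therefore tend to be too small. Xist, the RNA of the inactive X chromosome, marked 2 of 4 KO+AAV, 0 of 5 KO and 2 of 5 WT libraries at 6 months, and 1 of 3 in each group at 6 weeks, while Y-linked genes marked the others. Cardiomyocyte markers were detected in every group. The atrial myosin light chain gene Myl7 ranged from 20062 to 35244 at 6 weeks in KO and from 22450 to 32889 in WT hearts. At 6 months it reached at most 7.82 in KO+AAV, 459 in KO and 47.5 in WT hearts. The 2 ages were deposited separately and may have been normalised separately, so levels of the family are not compared between them.

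Proximal promoters are shown for the binding proteins that differed most between the groups, Igfbp5 and Igfbp7, and for Igfbp4, which did not pass the test in any comparison. Each window is RefSeq sequence of build GRCm38.p6, written 5′ to 3′ on the strand of the gene, with 250 bases before the annotated start and 50 bases from it on. The window of Igfbp5 is chr1:72874816-72875115 on the minus strand, that of Igfbp7 chr5:77407996-77408295 on the minus strand and that of Igfbp4 chr11:99040994-99041293 on the plus strand. Capitals mark matches, on either strand, to the TEAD motif GGAATG, the SP1 motif GGGCGG, the AP-1 motif TGANTCA, the CCAAT box or the TATA box TATAAA.
Igfbp5: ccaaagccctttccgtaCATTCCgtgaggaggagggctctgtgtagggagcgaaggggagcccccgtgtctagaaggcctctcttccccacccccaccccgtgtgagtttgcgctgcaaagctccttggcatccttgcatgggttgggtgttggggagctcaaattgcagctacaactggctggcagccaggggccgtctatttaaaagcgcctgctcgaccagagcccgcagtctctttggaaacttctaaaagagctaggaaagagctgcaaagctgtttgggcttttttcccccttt
Igfbp7: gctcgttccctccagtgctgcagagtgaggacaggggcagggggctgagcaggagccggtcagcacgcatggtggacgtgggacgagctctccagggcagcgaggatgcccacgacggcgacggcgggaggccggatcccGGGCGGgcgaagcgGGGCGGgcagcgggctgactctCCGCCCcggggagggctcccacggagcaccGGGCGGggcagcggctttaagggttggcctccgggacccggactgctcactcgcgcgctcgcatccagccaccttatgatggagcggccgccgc
Igfbp4: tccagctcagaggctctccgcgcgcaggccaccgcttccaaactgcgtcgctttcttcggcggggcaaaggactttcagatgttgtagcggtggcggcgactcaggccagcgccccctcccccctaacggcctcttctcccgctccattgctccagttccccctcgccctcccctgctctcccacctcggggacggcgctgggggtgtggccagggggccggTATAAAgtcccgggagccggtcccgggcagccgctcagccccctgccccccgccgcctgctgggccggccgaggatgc
With the annotated start counted as 0, Igfbp5 held 1 TEAD match, on the reverse strand at -233, and none of the other motifs. The TEAD letters occurred in 14.7% of 32851 RefSeq promoters of the same length. Igfbp7 held 4 SP1 matches, between -110 and -44, and its window was 73.3% G or C against a median of 52.7% over all promoters; SP1 letters occurred in 35.7% of them. Igfbp4 held a TATA match at -28, which 13.6% of promoters had somewhere in the window. Igfbp5 and Igfbp2 are neighbours on chromosome 1 and are transcribed towards each other. In the GENCODE vM21 annotation of GRCm38, Igfbp5 spans chr1:72857932-72874884 on the minus strand and Igfbp2 chr1:72824503-72852474 on the plus strand, and 5.46 kb separate them.

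In KO hearts at 6 months, 3 binding proteins and 1 ligand were higher than in WT hearts and no member was lower. Igfbp5, which binds to extracellular matrix, rose 3.15-fold. Igfbp7, a secreted protein of low affinity for insulin-like growth factors, rose 2.27-fold. Igfbp6, which prefers IGF2, rose 1.64-fold, and Igf1 rose 1.46-fold. These 4 were among 9 members tested, since Igfbp2 fell under the filter on low values. Of all 13419 genes tested, 2189 (16.3%) passed the same threshold, an adjusted p under 0.05 in limma. The median log2 change was 0.29 over the 9 members and 0.00 over all genes.

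Igfbp5 had normalised counts of 3169, 3664, 3789, 4449 and 3390 in KO hearts and 1170, 1492, 1256, 1109 and 880 in WT hearts. Every KO library lay above every WT library, by more than the spread in either group. The means were 3692 ± 487 in KO and 1182 ± 223 in WT (SD, n = 5 each). On the scale of log2(value + 1), the change was 1.65 with a standard error of 0.14 (limma adjusted p = 1.73e-06). It was 1.76 without KO replicates 1 and 5, 1.60 in the libraries of positive first component and 1.73 in those of negative. Among the libraries marked by Y-linked genes it was 1.50.

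Igfbp7 had counts of 6963, 3219, 3290, 2647 and 5762 in KO hearts and 1478, 1522, 1815, 2035 and 2264 in WT hearts. The groups did not overlap, but KO replicates 1 and 5 stood well above the other 3 KO libraries. The log2 change was 1.18 with a standard error of 0.23 (limma adjusted p = 0.00235). It came to 0.76 without KO replicates 1 and 5, to 0.93 in the libraries of positive first component and to 1.56 in those of negative, and passed the threshold in each. Within the 2 component splits the p values tend to be too small. Over the 9 members tested, groups did not overlap in 2, against 13.8% of all genes tested, and these were Igfbp5 and Igfbp7.

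**Figure D1:**
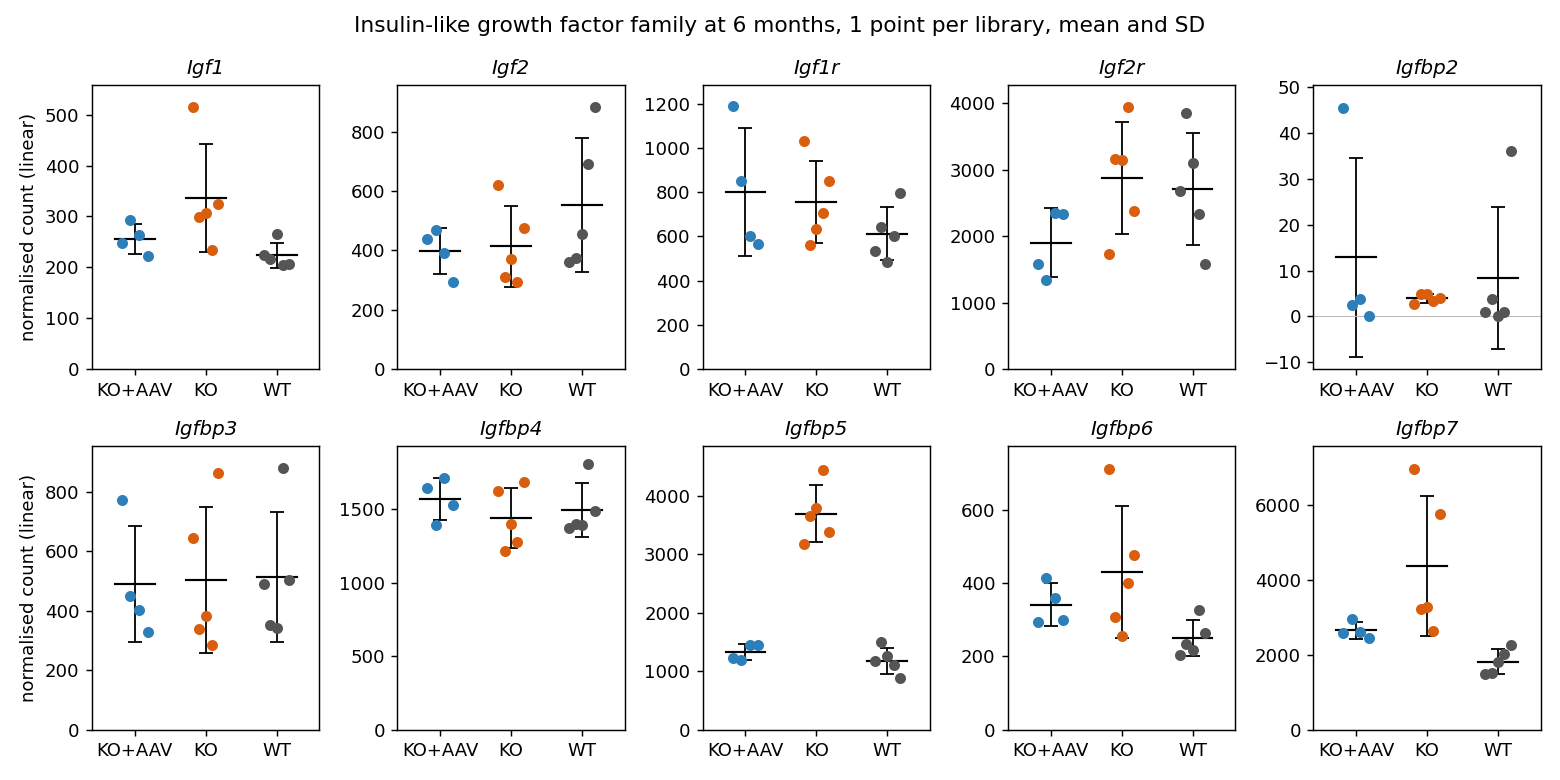
Normalised counts (linear axes) of the 10 genes in each library at 6 months, with 1 point per library in order of replicate number, and the mean and SD of each group in black. Igfbp5 separates the 5 KO libraries, at 3169 to 4449, from the KO+AAV libraries at 1198 to 1448 and the WT libraries at 880 to 1492, whereas Igfbp4 overlaps among all 3 groups.

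Of the ligands, Igf1 had counts of 516, 299, 307, 234 and 325 in KO hearts and 224, 217, 266, 205 and 206 in WT hearts. KO replicate 1 was the highest, and KO replicate 4 lay within the WT range. The log2 change was 0.54 with a standard error of 0.17 (limma adjusted p = 0.0434). It was 0.32 without KO replicates 1 and 5 (adjusted p = 0.193), 0.24 in the libraries of positive first component (adjusted p = 0.303) and 0.99 in those of negative. Among libraries marked by Y-linked genes the change was 0.47 (adjusted p = 0.221). Leaving out any 1 of KO+AAV replicates 1 and 3, KO replicates 1, 2, 3 and 5 and WT replicates 1, 2, 4 and 5 ended the call, at 0.38 to 0.57 (adjusted p 0.0527 to 0.0927). Igf2, the ligand of IGF2R, had counts of 621, 309, 372, 292 and 476 in KO hearts and 362, 376, 455, 691 and 882 in WT hearts. The groups overlapped, and the log2 change of -0.38 did not pass (limma adjusted p = 0.371). Of the exonic bases of Igf2, 62.8% are also annotated, on the same strand, to the readthrough gene Gm49394, so reads of the 2 genes may be divided in ways that depend on the counting.

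Igfbp6 had counts of 713, 307, 256, 400 and 477 in KO hearts and 205, 235, 218, 328 and 263 in WT hearts. KO replicates 1, 4 and 5 lay above all WT libraries, and the other two lay within the WT range. The log2 change was 0.71 with a standard error of 0.23 (limma adjusted p = 0.0461), and 0.36 without KO replicates 1 and 5 (adjusted p = 0.259). It was 0.52 in the libraries of positive first component (adjusted p = 0.0545), 0.99 in those of negative and 0.88 among libraries marked by Y-linked genes (adjusted p = 0.0671). With replicate numbers as a block the adjusted p was 0.0705. Leaving out any 1 of KO+AAV replicates 1, 3 and 4, KO replicates 1, 4 and 5 and WT replicates 1, 2, 3 and 5 ended the call, at 0.50 to 0.73 (adjusted p 0.0534 to 0.115).

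The receptors did not pass the test at 6 months. Igf1r averaged 756 ± 187 in KO hearts and 612 ± 120 in WT hearts (SD, n = 5 each), with a log2 change of 0.29 (limma adjusted p = 0.419). Igf2r averaged 2874 ± 846 in KO and 2711 ± 845 in WT hearts, with a 95% confidence interval of the log2 change from -0.45 to 0.63. Its 14 libraries spread from 1332 to 3943, and the groups overlapped.

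Igfbp3, the main carrier in serum, averaged 503 ± 245 in KO and 513 ± 217 in WT hearts (SD, n = 5 each), and its interval ran from -0.76 to 0.62 on the log2 scale. Igfbp4, an inhibitor that is inactivated by the protease PAPPA, averaged 1439 ± 206 in KO and 1492 ± 183 in WT hearts, with an interval from -0.32 to 0.21. Its groups overlapped. Igfbp2 was low in most libraries, at 2.63 to 4.88 in KO hearts and at 0, 0.972, 1.03, 3.82 and 36.0 in WT hearts.

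Because Igfbp4 kept a narrow range at 6 months, the ratio of Igfbp5 to Igfbp4 within each library was also formed. This measure was chosen after the values were seen. It does not depend on scaling between libraries. It ranged from 0.751 to 0.946 in KO+AAV hearts, from 1.95 to 3.48 in KO hearts and from 0.593 to 1.07 in WT hearts at 6 months. The KO range lay apart from both others. At 6 weeks the ratio was 0.426 to 0.551 in KO hearts and 0.29 to 0.736 in WT hearts, which overlapped. Igfbp4 did not keep a narrow range there, at 1883 to 3636 in WT hearts, so the ratio also varies with its denominator.

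Per kilobase of exon, Igfbp7 had the highest level of the family in all 5 groups, and its range did not overlap that of the next member in any of them. Its level was 2197 ± 185 normalised counts per kb in KO+AAV (SD, n = 4), 3620 ± 1554 in KO and 1508 ± 277 in WT hearts (SD, n = 5 each) at 6 months. Igfbp5 was the second in KO hearts, at 615 ± 81.1 normalised counts per kb, the fourth in KO+AAV hearts at 222 ± 22.4 and the fifth in WT hearts at 197 ± 37.1. In the order of per-kb levels, Igfbp5 overlapped its next lower member in each of these groups: Igfbp6 in KO, Igf2r in KO+AAV and Igfbp3 in WT hearts. Igf1, with 25.8 ± 3.01 normalised counts per kb in KO+AAV, 34.0 ± 10.7 in KO and 22.6 ± 2.5 in WT hearts, stood last but for Igfbp2.

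Some markers of other cell types moved with the knockout at 6 months. Over all genes, 16.3% were called in either direction. Of 10 fibroblast markers, 6 were higher and none lower in KO than in WT hearts, and none was at 0. Their summed normalised count ranged from 32472 to 43761 in KO+AAV, from 42930 to 59357 in KO and from 30599 to 45640 in WT hearts, with KO replicate 1 the highest. Of 10 cardiomyocyte markers, 4 were lower and none higher in KO, again with none at 0. Of 10 mural cell markers, Cspg4 was higher and Abcc9 and Acta2 were lower in KO, and none was at 0. The mural markers summed to 10626 to 13060 in KO+AAV, 8007 to 10697 in KO and 11545 to 18611 in WT hearts, so KO and WT did not overlap. Most of that gap lay in Abcc9, with means of 2125 in KO and 4264 in WT, and Acta2, with 1631 and 3953. Over the list, 4 log2 changes were positive and 6 negative, so the sum is not read as a change of the list as a whole. Macrophage markers, of which 1 of 10 was higher, a share below that of all genes, summed to 3892 to 6064 in KO and 3370 to 5527 in WT hearts. Of 10 endothelial markers 0 were called, and their sums of 18159 to 27689 in KO and 22983 to 31041 in WT hearts overlapped. Of 3 tested atrial markers, Nppa was higher in KO, with means of 83351 in KO and 7526 in WT hearts. Stard10 was lower, with means of 172 and 425. The liver marker Ttr was called higher, but only KO and KO+AAV libraries carried it past the filter, so it is not read further. The part of these lists in the changes of the family was not tested. In these bulk samples more cells of a type and more RNA per cell cannot be told apart.

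Knockout mice that had received the virus differed from untreated KO mice in 1 of the 9 members tested, Igfbp5, which was 2.76-fold lower. Over all genes, 1509 of 13419 (11.2%) passed in this comparison, and the median log2 change was -0.25 over the members and 0.00 over all genes. Igfbp5 had 1233, 1198, 1448 and 1446 in KO+AAV hearts, against 3169 to 4449 in KO hearts. The groups did not overlap, which held for this member alone of the 9, against 14.1% of all genes tested. The log2 change was -1.47 with a standard error of 0.15 (limma adjusted p = 0.000298). It was -1.58 without KO replicates 1 and 5, -1.45 in the libraries of positive first component, -1.43 in those of negative and -1.48 among libraries marked by Y-linked genes. The same KO libraries serve as the numerator of the knockout comparison and the denominator of this one, so the 2 are not independent.

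Igfbp7 had counts of 2595, 2972, 2610 and 2445 in KO+AAV hearts and 2647 to 6963 in KO hearts, and these overlapped. Its log2 change of -0.62 had a standard error of 0.24 and did not pass (limma adjusted p = 0.107). It was -0.27 in the libraries of positive first component (adjusted p = 0.208) and -1.19 in those of negative (adjusted p = 0.00752), where the split tends to make p too small. Without KO replicates 1 and 5 it was -0.20 (adjusted p = 0.396). Igf1, at 247, 293, 263 and 221 in KO+AAV hearts, had a log2 change of -0.35 from KO hearts, with a 95% confidence interval from -0.74 to 0.04. Igf2r, at 1581, 1332, 2350 and 2329 in KO+AAV hearts, had a log2 change of -0.59 (limma adjusted p = 0.162), with an interval from -1.16 to -0.01. The log2 changes of the other 5 members lay between -0.25, for Igfbp6, and 0.13, for Igfbp4. Of the 10 fibroblast markers, 4 were lower in KO+AAV than in KO hearts and none higher. Of the 10 cardiomyocyte markers, Tnnt2, Tnni3 and Ckm were higher and none lower, and the list summed to 1292327 to 1917670 in KO+AAV and 844275 to 1089895 in KO hearts, without overlap. Of the 10 mural markers Acta2 and Myh11 were higher and Cspg4 lower. Tie1 alone was higher among the 10 endothelial markers, near the 11.2% of all genes called in either direction. None of the 10 macrophage markers was called, though all 10 log2 changes were negative. Of 3 tested atrial markers, Stard10 was higher and Nppa lower in KO+AAV than in KO hearts. The part of these markers in the change of Igfbp5 was not tested.

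Set against WT hearts, KO+AAV hearts had 0 of 9 members past the threshold in limma, and 1, Igfbp7, at an unadjusted p under 0.05. Over all genes, 178 of 13419 (1.33%) passed the threshold, and 2454 (18.3%) had an unadjusted p under 0.05. Igfbp5 averaged 1331 ± 135 in KO+AAV (SD, n = 4) and 1182 ± 223 in WT hearts (SD, n = 5). The log2 difference of 0.19 had a 95% confidence interval from -0.13 to 0.50, and the groups overlapped. Igfbp7, at 2445 to 2972 in KO+AAV and 1478 to 2264 in WT hearts, was the member whose groups did not overlap here, against 5.4% of all genes tested. Its log2 difference was 0.56, with an interval from 0.04 to 1.07 (limma adjusted p = 0.246). It passed within the libraries of positive first component, at 0.66 (adjusted p = 0.0194), where the split tends to make p too small.

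**Figure D2:**
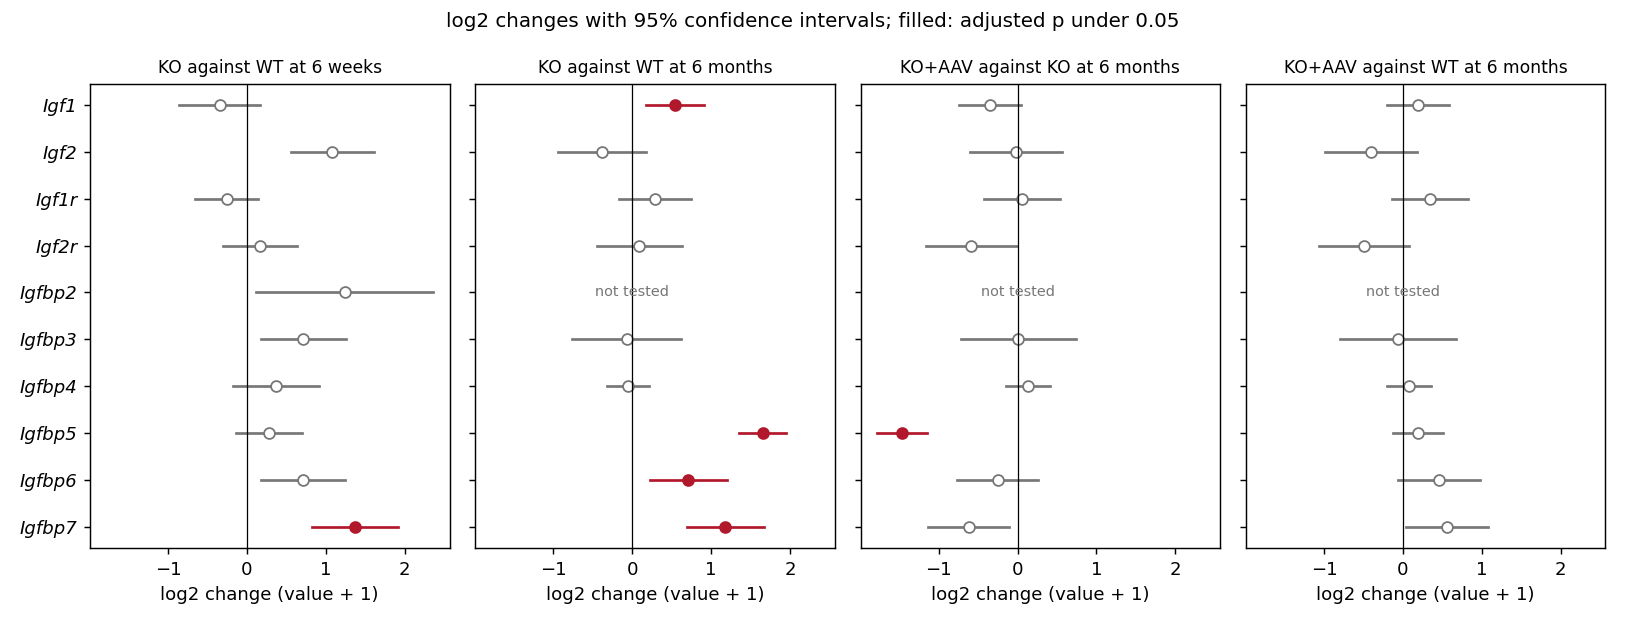
Log2 changes on the scale of log2(value + 1) for each gene in the 4 comparisons, with 95% confidence intervals; filled red points have an adjusted p under 0.05. Igfbp5 stands at 1.65 in KO against WT, at -1.47 in KO+AAV against KO and at 0.19 in KO+AAV against WT at 6 months, and at 0.28 in KO against WT at 6 weeks.

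At 6 weeks Igfbp7 was 2.58-fold higher in KO than in WT hearts, while Igfbp5 did not pass. Igfbp7 was the 1 of 10 members past the threshold, and 78 of 13242 genes tested (0.589%) passed in all. Igfbp2 passed the filter on low values only through its KO libraries and is left out of the following counts. The median log2 change was 0.37 over the other 9 members and 0.01 over all genes. In 4 of these 9, Igf2, Igfbp3, Igfbp6 and Igfbp7, all KO libraries lay above all WT libraries. Of all genes tested, 21.2% had no overlap in either direction.

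Igfbp7 had counts of 2692, 4082 and 4821 in KO hearts and 1161, 1571 and 1690 in WT hearts. The lowest KO library lay above the highest WT library. The log2 change was 1.37 with a standard error of 0.25 (limma adjusted p = 0.0363). With libraries scaled to equal totals it was 1.46 (adjusted p = 0.0699), without the mean-variance trend the adjusted p was 0.160, and without WT1, WT6, KO3 or KO4 it lay between 1.19 and 1.42 and did not pass (adjusted p 0.0842 to 0.193).

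Igf2 had counts of 2623, 4389 and 4100 in KO hearts and 1954, 1806 and 1411 in WT hearts, which did not overlap. The log2 change of 1.08 had a standard error of 0.24 and did not pass (limma adjusted p = 0.0718). It passed without KO2, at 1.31 (adjusted p = 0.0176), and with the Xist or Y-linked class as a covariate (adjusted p = 0.0451). Igf1 had counts of 724, 964 and 1154 in KO hearts and 1265, 1443 and 909 in WT hearts, which overlapped, and its log2 change of -0.35 had an interval from -0.86 to 0.17.

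Igfbp5 had counts of 1556, 1635 and 1384 in KO and 1054, 1351 and 1387 in WT hearts at 6 weeks. The highest WT library exceeded the lowest KO library by a few counts. The log2 change was 0.28 with a standard error of 0.19 (limma adjusted p = 0.513), and its interval ran from -0.14 to 0.69. Igfbp6, at 316, 340 and 301 in KO and 249, 223 and 133 in WT hearts, had a log2 change of 0.71 (adjusted p = 0.212). Igfbp3, at 484, 576 and 335 in KO and 335, 215 and 294 in WT hearts, also had a change of 0.71 (adjusted p = 0.212), its lowest KO library lying just above its highest WT library.

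Igfbp2 had counts of 14.4, 30.6 and 16.4 in KO and 7.70, 6.47 and 8.91 in WT hearts at 6 weeks. Because only its KO libraries carried it past the filter, its values had to differ, and its change is not read further. Igfbp4 averaged 3166 ± 173 in KO and 2551 ± 948 in WT hearts (SD, n = 3 each). Igf1r averaged 894 ± 91.3 in KO and 1068 ± 100 in WT hearts, and Igf2r averaged 467 ± 53.5 in KO and 422 ± 95 in WT hearts. In each of these 3 genes the groups overlapped and limma gave adjusted p values of 0.506, 0.526 and 0.746.

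**Figure D3:**
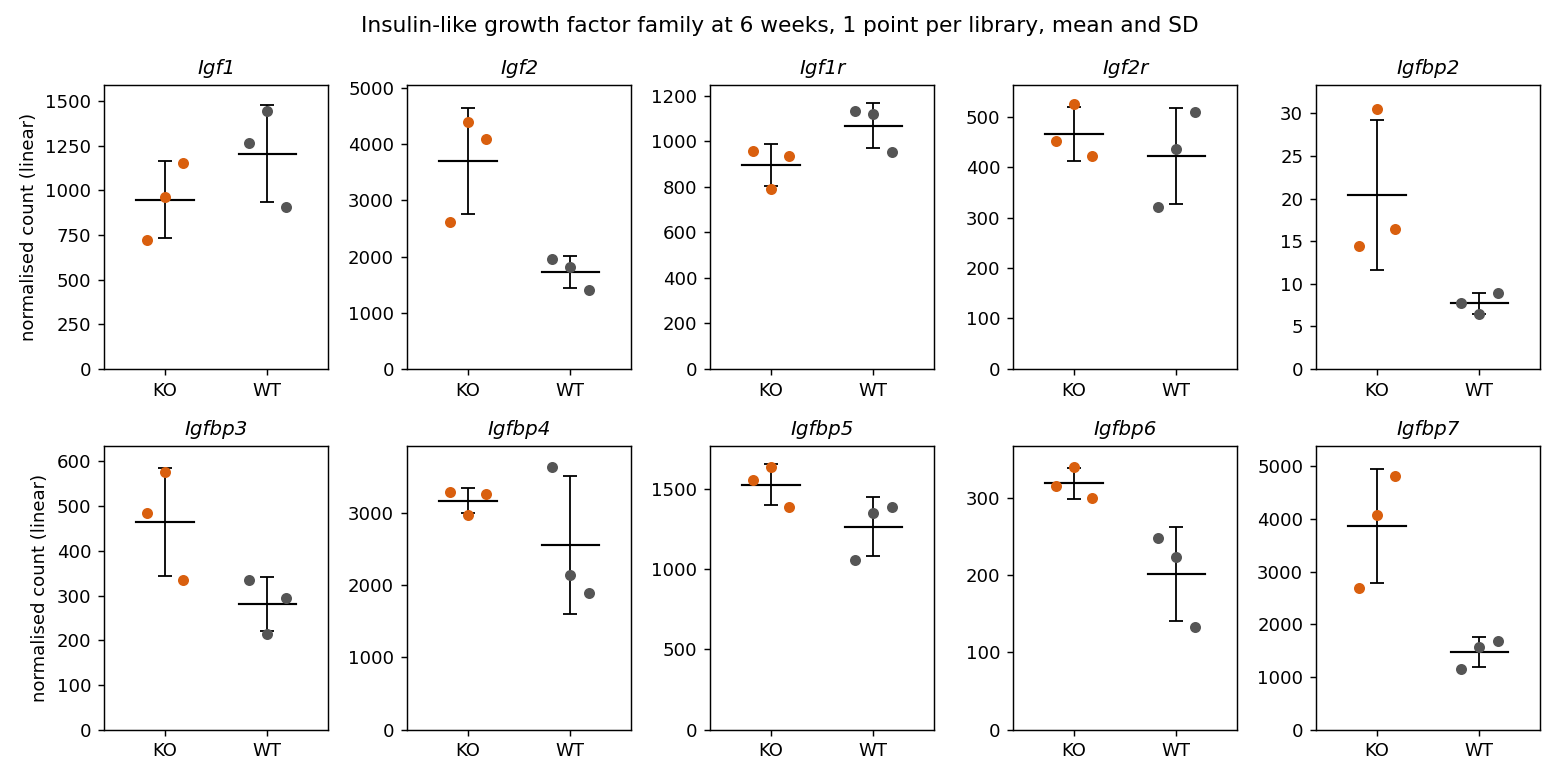
Normalised counts (linear axes) of the 10 genes in each of the 6 libraries at 6 weeks, with the mean and SD of each group in black. Igfbp7 lies at 2692 to 4821 in KO and 1161 to 1690 in WT hearts, and Igfbp5 at 1384 to 1635 in KO and 1054 to 1387 in WT hearts.

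Markers of other cell types were followed at 6 weeks as well. Limma called 0 of the 10 fibroblast, 10 endothelial and 4 tested mesothelial markers, while 5, 5 and 2 of them had higher values in KO at an unadjusted p under 0.05. Over all genes tested, 15.4% had such a p in either direction. At that p, 2 of 5 tested adipocyte markers also had higher values in KO and 2 of 3 tested liver markers lower ones. Among 10 macrophage markers 1 was higher and 1 lower at that p, and 0 of the 10 cardiomyocyte, 10 mural and 6 atrial markers reached it. The log2 changes of the cardiomyocyte markers were negative in 9 of 10, with a median of -0.36. The 10 fibroblast markers summed to 41389 to 47585 in KO and 31774 to 38461 in WT hearts, and the 10 endothelial markers to 17047 to 22199 in KO and 11076 to 14495 in WT hearts. The 6 mesothelial markers summed to 98.8 to 410 in KO and 74.1 to 129 in WT hearts, with KO3 the highest. Adipocyte markers summed to 556 to 2131 in KO and 294 to 693 in WT hearts, and liver markers to 986 to 2392 in KO and 1912 to 4790 in WT hearts. None of the fibroblast, endothelial and mesothelial markers was at 0 throughout a group. Their part in the values of Igfbp7 and Igf2 was not tested.

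The knockout effects at the 2 ages were then compared with each other, as the difference of the log2 changes. The ages may have been normalised separately, and the atrial gene Myl7 was high at 6 weeks in both genotypes but not at 6 months. Age and the tissue held by the samples therefore cannot be told apart in this comparison. Of 12709 genes tested at both ages, 518 (4.08%) differed, and 2 of 9 members were among them. The effect on Igfbp5 was larger at 6 months by 1.38 on the log2 scale, with a standard error of 0.24 (adjusted p = 0.00142 by the limma fits). The effect on Igf2 was lower at 6 months, with a difference of -1.47 and a standard error of 0.35 (adjusted p = 0.0170). This difference was -1.07 among the libraries marked by Y-linked genes at 6 months (adjusted p = 0.0876), and lay between -1.38 and -1.33 without KO3 or without KO4 of the 6-week libraries (adjusted p 0.0568 to 0.0713). The difference for Igf1 was 0.89 (adjusted p = 0.0893), and 1.08 without WT16 of the 6-week libraries (adjusted p = 0.0388). For Igfbp7, which was higher in KO hearts at both ages, the difference of -0.19 had an interval from -0.88 to 0.51, and for Igfbp6 the difference of 0.00 had one from -0.69 to 0.69. Of 62 markers of other cell types and of cardiomyocytes tested at both ages, 8 differed in the same test. The endothelial markers Pecam1, Cdh5 and Emcn had differences of -1.09, -1.24 and -1.02, and the median over the 10 endothelial markers was -0.89. The fibroblast marker Mfap5 differed by 1.31, and the 10 fibroblast markers had 6 positive and 4 negative differences, with a median of 0.47. The mural marker Cspg4 differed by 1.16, but 7 of the 10 mural markers had negative differences and their median was -0.26. The atrial marker Nppa differed by 2.91, with 2 positive differences and 1 negative among the 3 tested atrial markers. The liver marker Ttr differed by 3.52 and the adipocyte marker Cfd by -2.94. At 6 months liver markers summed to 3 to 6 in WT libraries, so only KO and KO+AAV libraries carried Ttr past the filter. Adipocyte markers summed to 2 to 23 in KO libraries there, so Cfd passed it mainly through the other groups. These 2 differences are therefore not read further. The part of all these markers in the differences of Igfbp5 and Igf2 was not tested.

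After removal of group means over the 14 libraries at 6 months, Igfbp5 correlated with Igf2r at 0.96 and with Igfbp7 at -0.71, whereas before that removal it correlated with Igfbp7 at 0.64. Igfbp7 correlated with Igf2 at 0.84, with Igfbp6 at 0.77 and with Igf1 at 0.72 within groups. The first within-group component correlated with Igf2r at 0.97, with Igfbp5 at 0.89, with Igf2 at -0.89 and with Igfbp7 at -0.76. These coefficients are descriptions over libraries that share a scaling and that component.

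**Figure D4:**
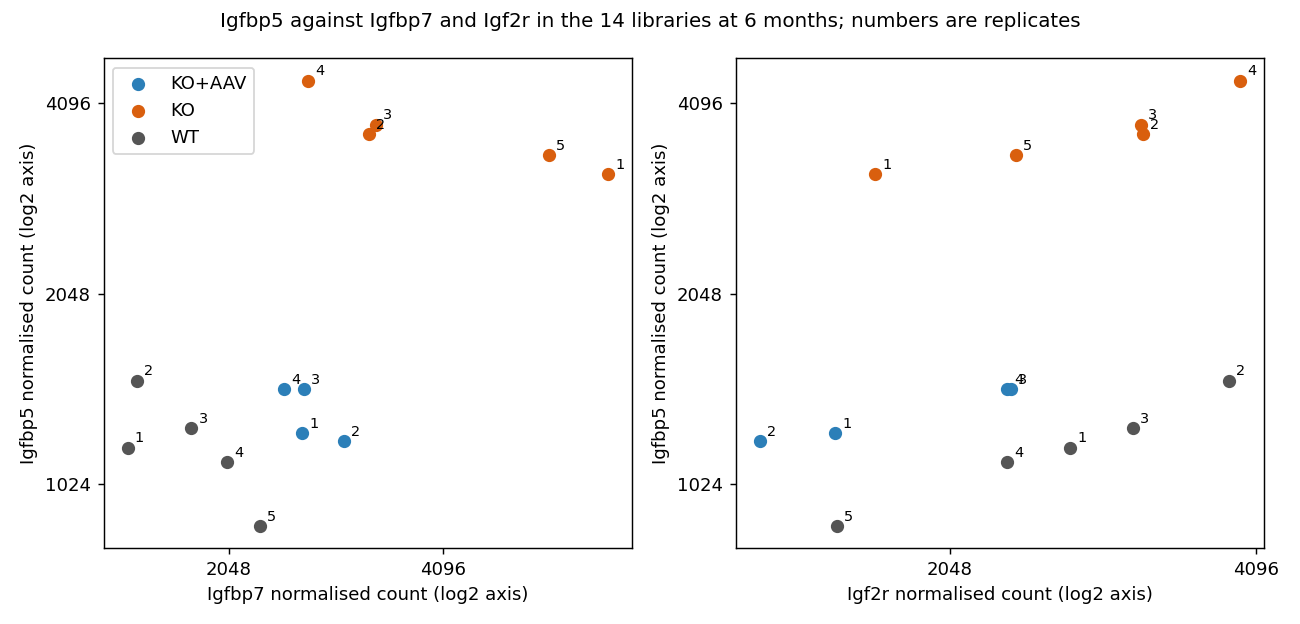
Normalised counts of Igfbp5 against those of Igfbp7 (left) and Igf2r (right) in the 14 libraries at 6 months, on log2 axes, with replicate numbers beside the points. Within each group, libraries with more Igf2r tend to have more Igfbp5 and those with more Igfbp7 tend to have less, while the KO libraries lie above the others in Igfbp5 throughout.

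The genes most like each of the 4 members that were higher in KO hearts at 6 months were taken by Pearson correlation over the 14 libraries among 9196 tested genes with a mean of at least 100. For Igfbp5 they were Pdzrn3, a ubiquitin ligase gene, at 0.98, Stk38l, a kinase gene, at 0.97 and P3h2, a collagen prolyl hydroxylase gene, at 0.97. After removal of group means these correlations were 0.72, 0.57 and 0.73. For Igfbp7 they were the lysyl oxidase family gene Loxl3 at 0.98, the stress-induced gene Nupr1 at 0.97 and the microfibril gene Mfap5, one of the fibroblast markers, at 0.96. After removal of group means they were 0.97, 0.93 and 0.93. For Igf1 they were Capn2, Rnf149 and Actn1, at 0.91, 0.90 and 0.89, and for Igfbp6 they were Bin1, Crispld2 and Olfr1033, at 0.95, 0.93 and 0.92.

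Other genes of the pathway were read from lists. Of 20 genes of IGF receptor signalling, all tested, 1 was higher and 2 were lower in KO than in WT hearts at 6 months, beside 16.3% of all genes called in either direction. Grb14, an adaptor that inhibits insulin receptor signalling, fell by 0.98 on the log2 scale (limma adjusted p = 0.00148), to a mean of 1529 ± 381 in KO hearts against 2947 ± 202 in WT hearts (SD, n = 5 each). Pik3r1, the regulatory subunit of phosphoinositide 3-kinase, fell by 0.66, and the kinase gene Gsk3b rose by 0.37. The median over the list was 0.07. Insr, Irs1 and Irs2, the insulin receptor and its substrates, did not pass.

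Of 8 tested genes of binding-protein proteases and their inhibitors, Adam9 rose by 1.13 on the log2 scale and Htra1, a secreted serine protease, fell by 0.99 in KO hearts at 6 months. Adam9, a metalloprotease gene, averaged 1402 ± 129 in KO and 672 ± 236 in WT hearts (SD, n = 5 each). Of 6 genes of the growth hormone axis, the receptor gene Ghr fell by 0.75 and the feedback inhibitor gene Cish fell by 1.07. Cish averaged 672 ± 254 in KO and 1364 ± 339 in WT hearts. The median over the growth hormone list was -0.39, beside 0.00 for all genes. In the protease and growth hormone lists, 2 of 8 and 2 of 6 genes were called, beside 16.3% of all genes in either direction. In lists this short these counts are not read as results about the lists.

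Igfals, which encodes the acid-labile subunit of the circulating complex, fell by 0.95 and was the single gene tested of 6 in its list. Igf2bp2, an RNA-binding protein gene and the single gene tested of 3, rose by 1.05. Among 6 tested imprinted neighbours of Igf2 and Igf2r, H19, the noncoding RNA beside Igf2, rose by 0.80 to 490 ± 84.6 in KO against 291 ± 108 in WT hearts. Slc22a3, an organic cation transporter gene beside Igf2r, fell by 2.26 to 48.5 ± 26.5 in KO against 218 ± 74.3 in WT hearts (SD, n = 5 each). Igf2 and Igf2r themselves did not pass in that comparison. The 2 of 6 neighbours called stand beside 16.3% of all genes called in either direction.

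In KO+AAV against KO hearts, 3 of 20 signalling genes were lower and none higher, beside 11.2% of all genes called in either direction. Their log2 changes were -0.82 for the kinase gene Pdpk1, -0.58 for the receptor-binding adaptor gene Grb10 and -0.44 for Gsk3b. Adam9 changed by -1.44, averaging 556 ± 245 in KO+AAV (SD, n = 4) and 1402 ± 129 in KO hearts (SD, n = 5). Igf2bp2 changed by -0.96. No gene of the growth hormone axis or of the imprinted neighbours passed there. In KO+AAV against WT at 6 months, and in KO against WT at 6 weeks, limma called 0 genes of these 6 pathway lists, with 11 of 42 and 10 of 44 tested genes at an unadjusted p under 0.05, beside 18.3% and 15.4% of all genes in these comparisons. Between the ages, the effect on Pik3r1 differed by -1.40 (adjusted p = 0.00142). It was the 1 gene called of 42 tested in these lists, beside 4.08% of all genes.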

How the data were processed

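Stranded poly(A) libraries of mouse heart RNA were analysed, 20 in all. What the authors deposited is 1 table for each age, holding normalised counts as a signal that is fractional and never negative. The scaling may have been done within each age. Per the labels the build was mm10 (GRCm38); for aligner, counter, annotation and strand setting, nothing is given in the sources used here. Whole reads could not be recovered, so counting tests were not run and the read depth is unknown. Summed over genes, the normalised counts came to 12024143 to 13041764 in KO+AAV, 11359135 to 12222476 in KO and 12492381 to 13670340 in WT libraries at 6 months, and 6790437 to 7414665 in KO and 6705133 to 8240294 in WT libraries at 6 weeks. All columns were used; 6-week columns matched their group by name.

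Values were taken as log2(value + 1), and a gene was tested when at least 10 in 3 libraries at 6 weeks or 4 at 6 months. All genes were fitted with limma 3.58.1 in R 4.3.3 (moderated variances with a trend, two-sided, 3 groups in 1 model at 6 months), with Benjamini-Hochberg adjustment over all genes tested and a threshold of 0.05. Knockout effects at the 2 ages were compared as the difference of log2 changes over the combined standard error, with Welch-Satterthwaite degrees of freedom. The code was tested on simulated data. Folds are on the log2(value + 1) scale. Levels per kb used exonic lengths of GENCODE vM21; shared sequence was counted in 50-base words. Tables and plots were made in Python 3.11.15 (numpy 2.4.6, pandas 2.3.3, matplotlib 3.10.9). Alternatives changed the pseudocount, filter, scaling, trend, sex-linked class, model, block and libraries. Named genes were all members, up to 4 called genes of smallest p per list and comparison, and 3 genes most like each of 4 members. The members and lists were chosen with earlier results of these data known.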

Additional observations from a re-analysis of the deposited data

Results flagged for a closer look

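Among 30 sets of values (each member in each 6-month group), 3 had a library far from the others, where chance gives about 1 in 20. Igfbp2 stood at 45.4 in KO+AAV replicate 1, against 0 to 3.86 in the other KO+AAV libraries. It stood at 36.0 in WT replicate 5, against 0 to 3.82 in the other WT libraries. Both libraries lie on the negative side of the first within-group component. In KO+AAV replicate 1 the summed adipocyte markers, at 90.8, were the highest of the 14 libraries, and the liver markers summed to 16.7. The highest liver sum, 445, was in KO+AAV replicate 2, where Igfbp2 stood at 2.54. In WT replicate 5 the adipocyte and liver sums were 46.2 and 5.61. Igfbp4 stood at 1810 in WT replicate 4, which also had the highest fibroblast marker sum of the WT libraries, 45640. Whether these markers bear on the values was not tested.

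The knockout effect differed between the ages in 2 members by the test of the difference itself. The ages also differ in the atrial gene Myl7, so age and the tissue held by the samples cannot be told apart. For Igfbp5 the log2 change was 1.65 at 6 months and 0.28 at 6 weeks, a difference of 1.38. For Igf2 it was -0.38 at 6 months and 1.08 at 6 weeks, a difference of -1.47.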

How the results depend on the processing

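No member changed direction with a call in any of 1162 recomputed values: 1109 kept their side of the threshold, 46 fell below it and 7 came above it. Igfbp5 in both 6-month comparisons that called it, its difference between ages, and Igfbp7 in KO against WT at 6 months kept their calls under all alternatives run. The 4 members higher in KO at 6 months became 2 without a filter, with quantile normalisation, without the trend, with the Xist or Y-linked class as a covariate, among Y-linked libraries alone, with 2 groups in the model, without KO replicates 1 and 5, and in libraries of positive first component; leaving out 1 library gave 2 to 4. The 1 member called at 6 weeks became 0 with equal totals or without the trend and 2 with the class covariate; leaving out 1 library gave 0 to 2. In KO+AAV against KO the 1 lower member became 2 without KO replicates 1 and 5 (Igf2r added) and in libraries of negative first component (Igfbp7 added). In KO+AAV against WT, 0 became 1 in libraries of positive first component. Of the differences between ages, the 1 lower became 0 among Y-linked libraries, and 0 to 1 by leaving out 1 library; the 1 higher became 2 in libraries of negative first component and 1 to 2 by leaving out 1 library. The cause of these shifts was not tested. The component splits were chosen after seeing the data and drawn from the same values, so calls within them are not read as support.

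The replicate block gave 3 members higher in KO at 6 months, in place of 4, and changed no other call of a member; same-numbered libraries correlated at -0.391 to 0.253 after removal of group means, over 0.1 in 7 of 13 pairs, so the numbers were not taken as pairs. Over all genes, the 78 calls at 6 weeks became 36 with equal totals, 12 without the trend and 189 with the class covariate, and 7 to 154 by leaving out 1 library. The 1509 calls of KO+AAV against KO became 542 with the class covariate, 332 among Y-linked libraries and 571 to 1816 by leaving out 1 library. The 2189 calls of KO against WT became 1381 without KO replicates 1 and 5 and 1228 in libraries of negative first component. The 178 calls of KO+AAV against WT became 36 among Y-linked libraries and 101 with 2 groups in the model. They became 645 and 22 in libraries of positive and negative component, and 108 to 472 by leaving out 1 library. The 518 age differences became 205 to 585 by leaving out 1 library and 600 in libraries of positive first component. Equal totals moved the median log2 change of all genes to 0.16 at 6 months and the split of higher and lower calls in KO against WT to 1764 and 657, from 1091 and 1098; in KO+AAV against KO it was 522 and 1013 (main 745 and 764), in KO+AAV against WT 158 and 85 (main 82 and 96), at 6 weeks 27 and 9 (main 50 and 28), and between ages 252 and 176 (main 253 and 265). Igfbp3 and Igfbp4, which did not pass, then stood at 0.09 and 0.10.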
